A study of Mus musculus with 12 samples.

Results

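Allele reads at 17 of the series' 89 SNPs came from F1 mice of the A/J-C57BL/6J cross, and they were chosen by the cross named beside each SNP in the deposited count files, not by any measured value. A/J and C57BL/6J are classical laboratory inbred strains, and an F1 animal carries 1 chromosome set from each. The animals were 4 weeks old, and liver and skeletal muscle came from 2 littermates, whose tissues were combined for RNA (0.3 g from each littermate, 0.6 g in all). The genomic DNA (gDNA) came from a piece of liver or muscle of either littermate. The labels name neither the mother's strain nor the animals' sex. Each SNP was amplified on its own from gDNA and from cDNA with 1 primer pair, and the amplicons were mixed in equal amounts into 4 pools and pyrosequenced in 3 runs. Of the 17 SNPs, all were measured in gDNA, 16 in muscle mRNA, 16 in liver mRNA and 15 in both tissues. rs30309406 was measured in muscle only and rs27032232 in liver only.

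In an F1 animal both copies of a gene share the same nucleus, the same transcription factors and the same microRNAs. A departure of the mRNA allele ratio in the cells from the gDNA ratio therefore marks a difference that lies on the chromosome copy itself. Such a difference is in how the copy is transcribed or in how its message is processed or degraded. Each template was amplified separately, so a measured departure also holds any difference between amplifications, which was not tested. gDNA amplified with the same primers shows how far the amplification alone favours an allele. MicroRNAs repress messages by pairing to short sites in them, and a SNP in such a site can strengthen or remove the pairing. The amplicons of the series were designed around sites of miR-1 and miR-133, microRNAs of skeletal and heart muscle, sites of miR-122, the abundant microRNA of liver cells, and control sites. Which of these a given SNP belongs to, the gene that holds it, and the strain that carries each allele were not used here, so directions are given by base, as the files list the bases.

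The primers are shown for the 8 SNPs on which the results turn: the 7 whose allele ratio differed by at least 1.25-fold between muscle and liver, and rs30309406, the muscle-only SNP. Both primers of a pair are written 5′ to 3′ and in lower case, and the SNP base is not marked in them. Whether the strains differ within a primer site was not checked.
rs29317345 (C/T), forward: cgtaggtgggagtgtgattgg
rs29317345 (C/T), reverse: accagtgagaccaacagcagg
rs29429994 (A/G), forward: tgaaccgtcctccatgaactc
rs29429994 (A/G), reverse: gaaagggcatctaaaggcagg
rs52257281 (A/G), forward: gccagttgggtctacataatgaaa
rs52257281 (A/G), reverse: tggaccatgattaaactgatttcc
rs30896490 (A/G), forward: actggaaatggttgataacacttgg
rs30896490 (A/G), reverse: cccacggtgaaggattaggtt
rs29924703 (A/G), forward: tagtgtgatggggttctggga
rs29924703 (A/G), reverse: atctgaaaagccatggggaag
rs33431534 (C/T), forward: cacttgccacgtgtgtaaatgac
rs33431534 (C/T), reverse: ggtgagtctctggaggcgatag
rs30114270 (C/T), forward: ttcttcagtttgctcgggttg
rs30114270 (C/T), reverse: aaagacaacatcctgggaggc
rs30309406 (G/T), forward: agtcggtcacaggttccacag
rs30309406 (G/T), reverse: aagacttcttggatttgacagtagcag
The 34 primers of the 17 SNPs were 21 to 27 bases long with 37.5% to 61.9% G or C, and no SNP of the cross shared a primer with another SNP. The pair of rs52257281 had the lowest G and C content (41.7% and 37.5%).

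By alleles, 9 of the SNPs were A/G, 7 were C/T and 1 (rs30309406) was G/T, so that 16 of 17 were transitions, against 72 of 89 in the series. Summed over the runs, a SNP of the cross had a median gDNA depth of 3421 allele reads (835 to 7966). The median was 3684.5 for muscle (541 to 10990) and 3681.5 for liver (1031 to 7051). A pool gave between 41332 and 108526 allele reads in a run. Since amplicons were mixed in equal amounts, read numbers say nothing of expression, and neither the tissues' marker genes nor the level of any transcript could be checked. Shares are given as mean ± SD over the 3 runs. The runs are repeat readings of 1 amplicon made from 1 pool of animals, so the tests and 95% intervals cover counting error, not differences between animals or amplifications, and reads of a PCR product are not independent molecules.

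The run-to-run spread at these SNPs was small beside the larger shifts described below. The median SD of a share over runs was 1.63 percentage points for the 49 amplicons of the cross and 1.47 points for all 228. Allele counts of the 3 runs differed at none of the 49 after adjustment (chi-square test, Benjamini-Hochberg over all amplicons), against 8 of all 228. With an unadjusted p under 0.05 they differed at 6 of the 49, against 34 of 228. The mean chi-square statistic per degree of freedom was 1.51 for the cross and 1.73 for all amplicons, above what counting error alone gives on average. The largest spread was in the liver amplicon of rs52257281, with an SD of 8.43 points, followed by the muscle amplicon of rs3685280 with 7.30 points. Both amplicons are among the thinly read ones, with 1031 and 541 reads in all.

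**Figure D1:**
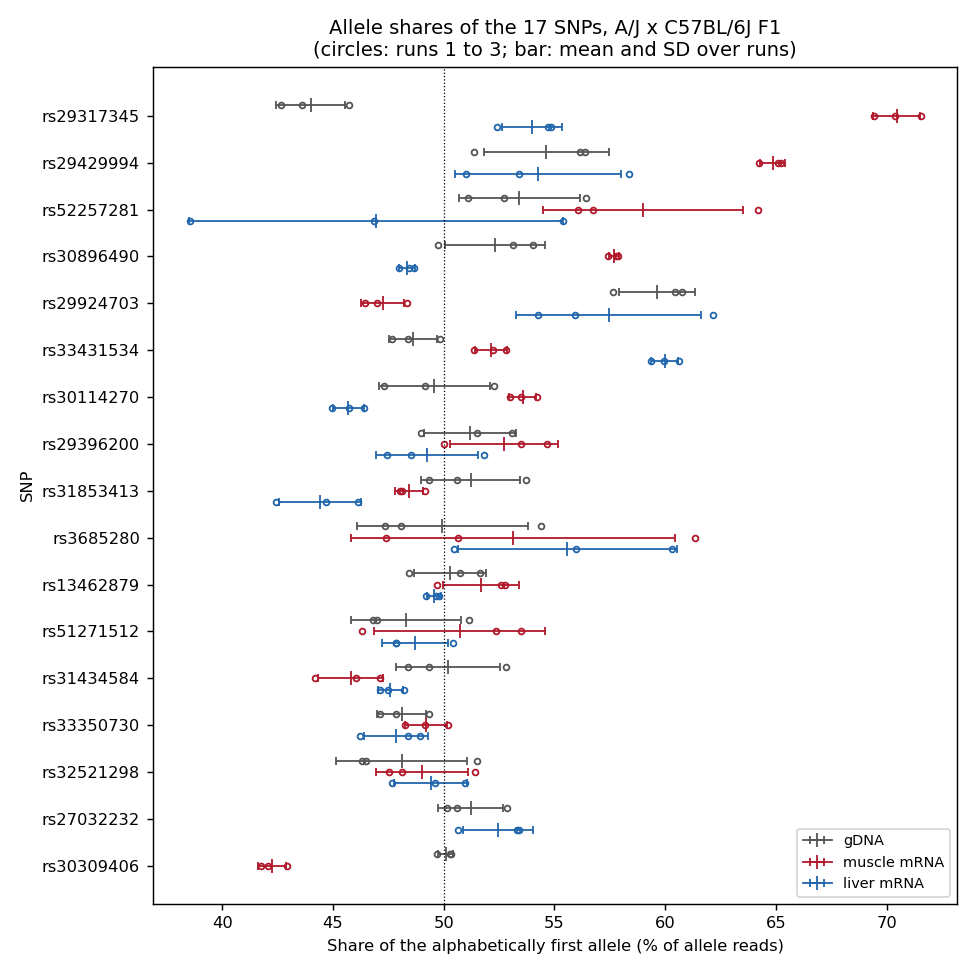
Share of the alphabetically first allele (horizontal axis, % of allele reads) for each of the 17 SNPs (rows), in gDNA (grey), muscle mRNA (red) and liver mRNA (blue). Circles are the 3 runs, and bars are the mean and SD over runs. The muscle circles of rs29317345 lie near 70%, far to the right of its gDNA circles near 44%, while the liver circles of rs52257281 range from 38.5% to 55.4%.

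Most SNPs of the cross were near 1:1 in gDNA. The median share of the more frequent allele was 51.5% (51.0% over all 89 SNPs), and 15 of the 17 SNPs held both alleles between 45% and 55%. At 4 of the 17 the ratio departed from 1:1 (exact binomial test, two-sided, Benjamini-Hochberg adjusted p under 0.05), where 24.7% of the series' SNPs did. The largest skew was at rs29924703, where A took 59.6% ± 1.71 of gDNA reads (95% Wilson interval 57.7% to 61.6%; adjusted p = 1.93e-20, exact binomial test). At rs29317345 T took 56.0% ± 1.56 (54.6% to 57.3%; adjusted p = 4.02e-16, exact binomial test). rs29429994 (A at 54.6% ± 2.83) and rs33350730 (G at 51.9% ± 1.12) were called at smaller skews. rs29429994 lost the call without run 1 or run 2, rs33350730 lost it without run 2 or run 3, and both lost it with extra variance between amplicons. The allele with more gDNA reads was A or T at 12 of the 17 SNPs and G or C at 5. Over the SNPs of the series that pair an A or T with a G or C, the corresponding numbers were 45 and 34. Because 4 SNPs were skewed before any transcript was read, shares in mRNA are given beside shifts relative to gDNA.

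The tissues were first compared directly, which is a comparison that uses no gDNA reads and asks whether the parental copies of a transcript stand in different proportions in the tissues. The allele ratio differed at 10 of 15 SNPs (Fisher's exact test on the summed reads, two-sided, adjusted p under 0.05), where 62% of the series' SNPs measured in both tissues were called. The median fold, meaning the allele ratio in one tissue over that in the other, was 1.19-fold over the 15 SNPs and 1.19-fold over all 50. All 10 differed in the same direction in every run, as did all 31 of the series' calls, which were made on the sum of these runs. The runs of the tissues did not overlap at 8 of the 15 SNPs, all of them called, against 58% of the series' SNPs. At 7 SNPs the fold was 1.25 or more, against 20 of 50 in the series. A quasi-binomial model, which sets the difference against the spread over runs, called 7 of the 15 (46% of the series' SNPs), and extra variance between amplicons left 7 (44%). All 3 tests called 6 of the 15, against 18 of 50 in the series.

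The largest tissue difference was at rs29317345. Its C allele made up 69.4%, 70.4% and 71.5% of muscle reads in runs 1 to 3, and 52.4%, 54.7% and 54.8% of liver reads. Every muscle run lay far above every liver run. C was the allele with more reads in both tissues, and its ratio to T was 2.00-fold higher in muscle (95% interval 1.82 to 2.21; adjusted p = 4.29e-45, Fisher's exact test). By run, the fold was 2.06, 1.96 and 2.07.

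At rs29429994 the A allele took 65.1%, 64.2% and 65.2% of muscle reads and 51.0%, 53.4% and 58.4% of liver reads. The muscle runs were nearly equal and all higher than the liver runs, which spread more widely. The ratio was 1.63-fold higher in muscle (1.40 to 1.91; adjusted p = 2.13e-09, Fisher's exact test). A exceeded G in both tissues, as it did in gDNA.

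At 4 SNPs the tissues held different majority alleles, each with a 95% Wilson interval that left out 50%. These majorities are of reads not set against gDNA, and the same count was not made over the series. At rs30896490 the A allele made up 57.9%, 57.4% and 57.8% of muscle reads but 48.7%, 48.0% and 48.4% of liver reads. These were the most even runs of any tissue difference in the cross, with SDs of 0.240 and 0.354 points, and the fold was 1.45 to 1.46 in each run (1.46-fold summed, 1.33 to 1.59; adjusted p = 6.13e-16, Fisher's exact test). The summed shares of A were 57.7% in muscle (56.0% to 59.3%) and 48.4% in liver (46.9% to 49.8%).

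At rs30114270, the most deeply read SNP of the cross in muscle (10990 reads), C took 53.5%, 53.0% and 54.2% of muscle reads and 46.4%, 45.7% and 45.0% of liver reads. No run of one tissue reached a run of the other, and the ratio of C to T was 1.36-fold higher in muscle (1.28 to 1.45; adjusted p = 2.12e-22, Fisher's exact test). At rs29924703 G took 53.6%, 51.7% and 53.0% of muscle reads and 44.1%, 45.8% and 37.8% of liver reads, a 1.43-fold difference (1.27 to 1.62; adjusted p = 1.60e-08, Fisher's exact test). G thus held most muscle reads and A most liver reads, where A was also the allele favoured in gDNA. Against gDNA both tissues were higher in G, by 1.65-fold in muscle and by 1.15-fold in liver, the latter not called.

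The fourth was rs52257281, whose A allele took 56.7%, 64.2% and 56.1% of muscle reads and 46.9%, 38.5% and 55.4% of liver reads. The lowest muscle run and the highest liver run all but met. The summed ratio was 1.60-fold higher in muscle (1.35 to 1.90; adjusted p = 2.83e-07, Fisher's exact test), but by run the fold was 1.49, 2.84 and 1.03. The quasi-binomial model over runs did not call it, and without run 2 the log2 difference was 0.47, against 0.68 with all runs.

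At rs33431534 the liver held the stronger imbalance. Its C allele took 59.9%, 60.6% and 59.4% of liver reads and 52.2%, 52.8% and 51.4% of muscle reads, so that C had more reads in both. The ratio of T to C was 1.36-fold higher in muscle (1.26 to 1.47; adjusted p = 2.35e-14, Fisher's exact test), and the fold by run was 1.37, 1.37 and 1.38. It was the SNP with the steadiest fold after rs30896490.

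The other 3 called differences were small. They were 1.19-fold at rs29396200 (A over G higher in muscle, 1.06 to 1.33), 1.16-fold at rs31853413 (C over T, 1.08 to 1.25) and 1.08-fold at rs13462879 (C over T, 1.01 to 1.16). Runs of the tissues overlapped at rs29396200 and rs13462879. Neither of these SNPs was called by the quasi-binomial model or with extra variance between amplicons, and rs31853413 was not called with extra variance. rs29396200 was not called without run 2 (log2 difference 0.18, against 0.25 with all runs), and rs13462879 was not called without run 1 (0.07) or run 3 (0.11), against 0.12 with all runs.

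At 5 SNPs no tissue difference was called. The intervals of their folds cover counting error only, not the spread between runs or amplifications. They were 0.945 to 1.39 at rs3685280, 0.953 to 1.18 at rs51271512, 0.961 to 1.17 at rs31434584, 0.970 to 1.11 at rs33350730 and 0.918 to 1.10 at rs32521298. rs3685280, with 541 muscle reads, is the least resolved of the cross. rs51271512 was called without run 2 (log2 difference 0.28, against 0.09 with all runs), since its muscle share of A was 46.3% in run 2 and 52.4% and 53.5% in the others.

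**Figure D2:**
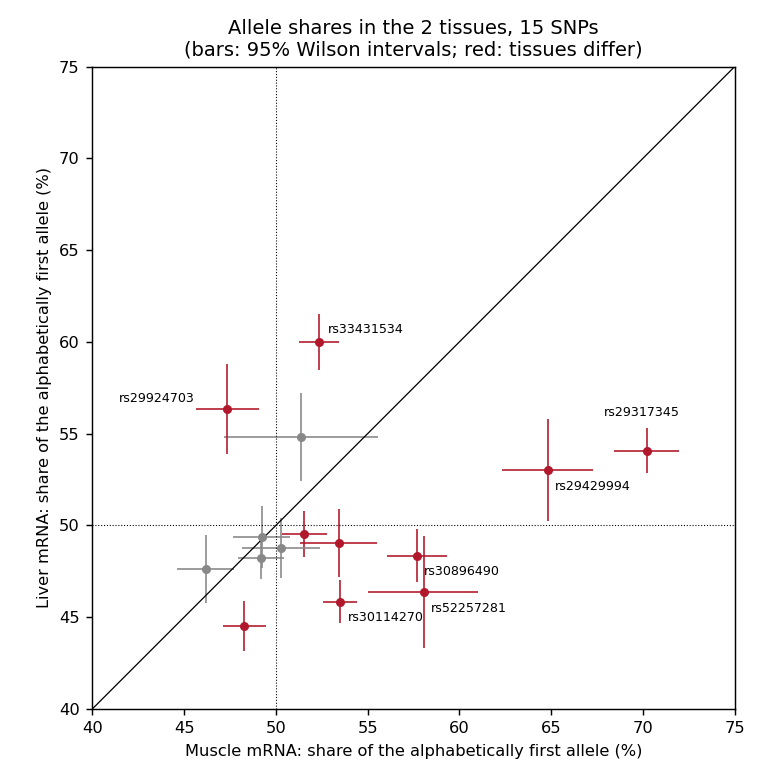
Summed share of the alphabetically first allele in muscle mRNA (horizontal axis, %) against liver mRNA (vertical axis, %) for the 15 SNPs measured in both tissues, with 95% Wilson intervals as bars. Red points are the 10 SNPs whose tissues differed, the diagonal marks equal shares, and the dotted lines mark 50%. rs30896490, rs30114270 and rs52257281 lie to the right of 50% in muscle and below it in liver, and rs29924703 lies on the opposite side of both lines.

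The 7 SNPs read in muscle in pool 3 and in liver in pool 4 had 5 calls and a median of 1.43-fold. The 8 read in muscle in pool 4 and in liver in pool 2 had 5 calls and a median of 1.16-fold. Muscle and liver amplicons of a SNP always lay in different pools, so tissue and pool cannot be told apart. The gDNA amplicons lay in pool 1 or pool 2, and never in a pool that held mRNA amplicons of the same SNP. Template and pool therefore cannot be told apart in the comparisons with gDNA below either.

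Muscle mRNA was next compared with gDNA, which asks whether the parental copies of a message differ in muscle once the amplification's own preference is taken off. The ratio was shifted at 10 of 16 SNPs (Fisher's exact test, adjusted p under 0.05), where 62.7% of the series' SNPs were called. The median fold was 1.17 over the 16 SNPs and 1.17 over all 75. A fold of 1.5 was reached at 3 SNPs of the cross, against 13 of 75 in the series. All 10 shifts had the same direction in each run, as did 46 of the series' 47 calls. The calls were made on the sum of the same runs. The mRNA runs did not overlap the gDNA runs at 9 of the 16 SNPs, all of them called, against 56% of the series' SNPs. The favoured allele was G or C at 5 of the 10 called SNPs and A or T at 5, against 20 and 22 of the series' calls.

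rs29317345 led this comparison too. The C allele made up 45.7%, 42.7% and 43.6% of gDNA reads, so the muscle shares near 70% were a 2.99-fold shift of the ratio (2.71 to 3.31; adjusted p = 6.37e-105, Fisher's exact test). By run the shift was 2.69, 3.19 and 3.24-fold. This was the largest fold of any SNP in the series in muscle.

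At rs29924703 the shift of 1.65-fold towards G (1.48 to 1.83; adjusted p = 4.43e-19, Fisher's exact test) was set by both sides of the comparison. G had 39.3%, 39.5% and 42.3% of gDNA reads, well below 1:1, while its muscle share stood a little above 1:1 at 52.8% ± 0.979. At rs29429994 muscle held A at 64.9% ± 0.555 of reads against 54.6% ± 2.83 for gDNA, which was 1.52-fold (1.28 to 1.80; adjusted p = 5.45e-06, Fisher's exact test).

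rs30309406, which has no liver amplicon, had the most even gDNA of the cross. Its T allele took 49.7%, 49.7% and 50.3% of gDNA reads and 58.0%, 58.3% and 57.1% of muscle reads. The runs of the templates were well apart, and the shift was 1.37-fold (1.25 to 1.5; adjusted p = 1.78e-11, Fisher's exact test). In muscle the quasi-binomial model over runs called 6 of the 16 SNPs (33.3% of the series' SNPs), and extra variance between amplicons left 4 (32%). The 4 called by all 3 tests, against 20 of 75 in the series, were rs30309406, rs29317345, rs29924703 and rs29429994.

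The other 6 muscle shifts were of 1.13-fold to 1.23-fold. Towards A they were 1.23-fold at rs52257281 (1.02 to 1.48) and 1.23-fold at rs30896490 (1.11 to 1.37). Towards C they were 1.18-fold at rs30114270 (1.10 to 1.26) and 1.17-fold at rs33431534 (1.09 to 1.25). At rs31434584 G was favoured by 1.18-fold (1.07 to 1.29), and at rs31853413 T was favoured by 1.13-fold (1.03 to 1.23). rs52257281 lost its call without any 1 of the runs (log2 shifts of 0.26, 0.28 and 0.35 without run 1, 2 and 3, against 0.30 with all). rs31434584 lost its call without run 2 (0.15, against 0.23), and rs31853413 without run 1 (0.09, against 0.18).

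At the 6 SNPs not called in muscle the fold was at most 1.09. The intervals were 0.897 to 1.34 at rs3685280, 0.976 to 1.22 at rs29396200, 0.953 to 1.23 at rs51271512, 0.960 to 1.15 at rs32521298, 0.969 to 1.14 at rs13462879 and 0.973 to 1.11 at rs33350730. A shift of 1.5-fold lay outside each of these intervals, but they cover counting error only, not the spread between runs or amplifications. At rs3685280 the fold towards C ranged from 0.861 in run 2 to 1.71 in run 3. A 1.5-fold shift thus lay within the spread of its runs.

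Liver mRNA was compared with the same gDNA reads. The ratio was shifted at 7 of 16 SNPs (Fisher's exact test, adjusted p under 0.05), where 65.6% of the series' SNPs were called. The median fold was 1.13 over the 16 SNPs and 1.18 over all 64. A fold of 1.5 was reached at 1 SNP of the cross, against 9 of 64 in the series. At 6 of the 7 every run had the same direction, as at 39 of the series' 42 calls. The liver runs did not overlap the gDNA runs at 6 of the 16 SNPs, 5 of them called, against 59.4% of the series' SNPs. The favoured allele was G or C at 5 of the 7 called SNPs and A or T at 2, against 18 and 20 of the series' calls. Whether the share of calls in this cross differs from that of the other crosses was not tested.

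The largest liver shift was at rs33431534. Its C allele took 47.7%, 49.8% and 48.4% of gDNA reads, so the liver shares near 60% were a 1.59-fold shift (1.46 to 1.73; adjusted p = 1.02e-27, Fisher's exact test). All liver runs lay above every gDNA run. The muscle runs of this SNP also lay above the gDNA runs, by less.

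rs29317345 came next, with C at 54.0% ± 1.37 in liver mRNA and 44.0% ± 1.56 in gDNA, a 1.49-fold shift (1.39 to 1.61; adjusted p = 2.02e-25, Fisher's exact test). At rs31853413 the T allele took 46.3%, 49.4% and 50.7% of gDNA reads and 57.6%, 53.9% and 55.3% of liver reads, which gave 1.31-fold (1.20 to 1.44; adjusted p = 3.05e-08, Fisher's exact test). The shift of rs31853413 was 1.57-fold in run 1 and 1.20-fold in the other runs. In liver the quasi-binomial model over runs called 4 of the 16 SNPs (45.3% of the series' SNPs), and extra variance between amplicons left 3 (40.6%). All 3 tests called rs33431534, rs29317345 and rs31853413, against 25 of 64 SNPs in the series.

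The other 4 liver shifts were weaker. At rs30896490 G was favoured by 1.18-fold (1.07 to 1.31) and at rs30114270 T by 1.15-fold (1.07 to 1.24), both with liver runs apart from the gDNA runs. At rs3685280 the C allele took 50.5%, 60.3% and 56.0% of liver reads and 47.4%, 54.4% and 48.1% of gDNA reads, so the templates overlapped although liver was higher in each run (1.26-fold, 1.09 to 1.45). It was not called without run 3 (log2 shift 0.26, against 0.33 with all runs). At rs52257281 G was favoured by 1.30-fold in the summed reads (1.08 to 1.56), but the fold was 1.18, 2.06 and 0.899 by run, and the call was lost without run 2 (log2 shift 0.19, against 0.38).

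At the 9 SNPs not called in liver the fold was at most 1.15. rs29924703 was closest to a call, with G favoured by 1.15-fold (1.01 to 1.30; adjusted p = 0.0573, Fisher's exact test), and then rs31434584, with G favoured by 1.11-fold (1.004 to 1.23; adjusted p = 0.0632, Fisher's exact test). Both were called without run 3, with log2 shifts of 0.32 (against 0.20) and 0.20 (against 0.15). At rs29429994, shifted in muscle, the liver share of A (54.3% ± 3.76) was near that of gDNA (54.6% ± 2.83), with an interval of 0.906 to 1.28 for G over A. The intervals were 0.986 to 1.21 at rs29396200, 0.963 to 1.16 at rs32521298, 0.954 to 1.13 at rs27032232, 0.951 to 1.12 at rs13462879, 0.909 to 1.14 at rs51271512 and 0.939 to 1.07 at rs33350730.

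**Figure D3:**
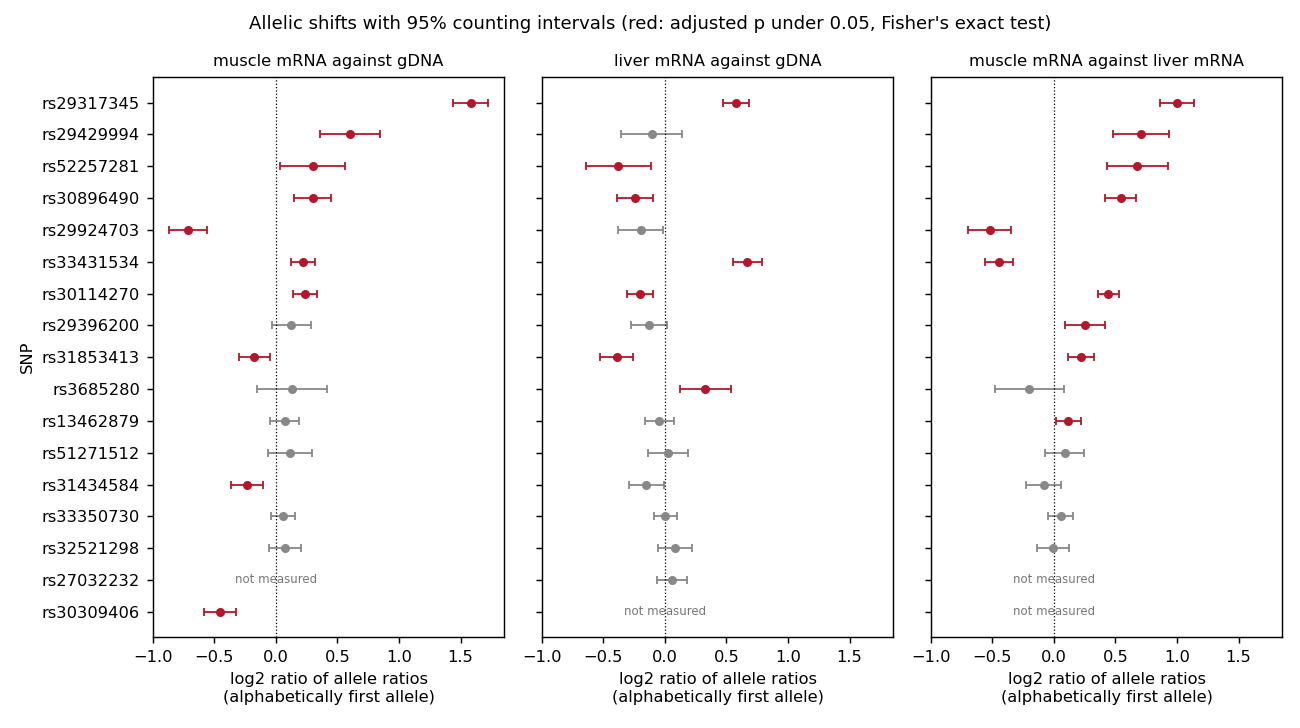
log2 ratio of allele ratios (horizontal axis, alphabetically first allele over the other) for each SNP (rows) in the 3 comparisons (panels), with 95% intervals from counting error. Red points passed Fisher's exact test at an adjusted p under 0.05, namely 10 of 16 in muscle against gDNA, 7 of 16 in liver against gDNA and 10 of 15 in muscle against liver. rs29317345 has the largest value in the muscle against gDNA panel and in the muscle against liver panel.

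Both tissues' shifts share their gDNA reads, so an error in gDNA enters both, and they are given side by side without a measure of their likeness. Against gDNA, C of rs29317345 was favoured by 2.99-fold in muscle and 1.49-fold in liver. C of rs33431534 was favoured by 1.17-fold in muscle and 1.59-fold in liver, and T of rs31853413 by 1.13-fold and 1.31-fold. At rs30896490 the muscle shift was 1.23-fold towards A and the liver shift 1.18-fold towards G. At rs30114270 it was 1.18-fold towards C in muscle and 1.15-fold towards T in liver, and at rs52257281 1.23-fold towards A in muscle and 1.30-fold towards G in liver. At these last SNPs the gDNA share lay between the tissues, with A of rs30896490 at 52.3% ± 2.27 and C of rs30114270 at 49.6% ± 2.51. With extra variance between amplicons, rs30896490, rs30114270 and rs52257281 were not called against gDNA in either tissue. The quasi-binomial model called rs30896490 in both tissues, but rs30114270 and rs52257281 in neither.

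In all, 13 of the 17 SNPs were called in at least 1 of the 3 comparisons and 6 in all of them. The comparisons share reads, and these counts were not made over the series. Of the series' SNPs, 62.7% were called in muscle and 65.6% in liver against gDNA, and 62% between tissues. The 4 called in none were rs27032232, rs32521298, rs33350730 and rs51271512. rs33350730 was the best measured of these, with 7966 reads in gDNA, 6131 in muscle and 7051 in liver, and its A allele stood at 48.1% ± 1.12, 49.2% ± 0.967 and 47.8% ± 1.43. At 2 SNPs, rs29396200 and rs13462879, Fisher's exact test called a tissue difference although neither tissue was called against gDNA. Neither of these tissue differences was called by the quasi-binomial model or with extra variance between amplicons.

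At 2 SNPs the order of the runs was alike in every template, although run counts did not differ after adjustment. At rs32521298 the C allele had its highest share in run 2 and its lowest in run 1 in gDNA (51.5% and 46.3%), muscle (51.4% and 47.5%) and liver (50.9% and 47.7%). At rs13462879 the highest C share was in run 1 and the lowest in run 2 in each template (51.6% and 48.5% in gDNA). These 2 were the only SNPs of the 15 measured in all templates for which both the highest and the lowest run were shared. The same count was not made over the series, and whether it exceeds chance was not tested.

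**Figure D4:**
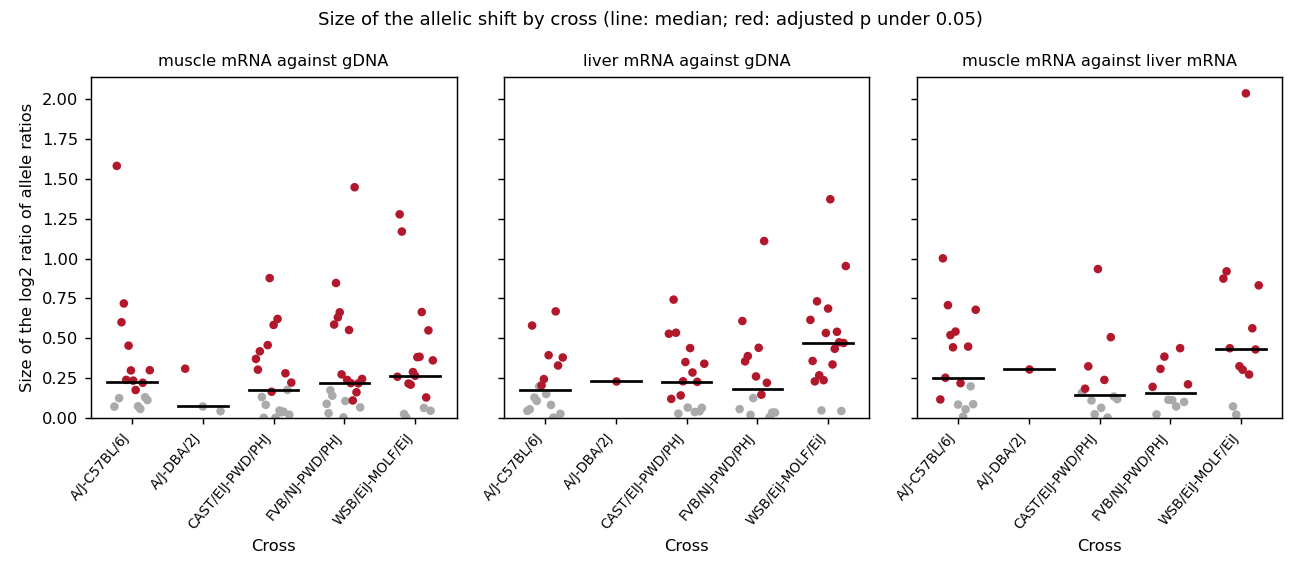
Size of the log2 ratio of allele ratios (vertical axis) for every SNP of the 5 crosses (horizontal axis) in the 3 comparisons (panels). Lines are medians and red points passed Fisher's exact test at an adjusted p under 0.05. The A/J-C57BL/6J cross has medians of 1.17-fold, 1.13-fold and 1.19-fold in the panels from left to right, before taking log2.

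The medians of the cross are given beside those of the 3 crosses that involve wild-derived strains and of A/J-DBA/2J, the other cross of classical strains. In muscle against gDNA its median of 1.17-fold stood beside 1.13-fold in CAST/EIJ-PWD/PHJ, 1.16-fold in FVB/NJ-PWD/PHJ and 1.20-fold in WSB/EiJ-MOLF/EiJ. In liver against gDNA its median of 1.13-fold stood beside 1.17-fold, 1.14-fold and 1.39-fold in the same order. Between tissues its 1.19-fold stood beside 1.11-fold, 1.11-fold and 1.35-fold. A/J-DBA/2J, with 3, 1 and 1 SNPs measured in these comparisons, had 1.05-fold, 1.18-fold and 1.24-fold. In liver the cross had the lowest median of the 5. The crosses differ in which SNPs were assayed, and their medians were not tested against each other.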

How the data were processed

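The authors deposited raw allele read counts for each amplicon in each run, beside template, cross and primers, per the file headers. How reads were aligned and filtered, and the genome build, are not stated in the labels or files. The allele listed first changed between files at 15 of the 17 SNPs, so alleles were matched by base, and counts were summed over the 3 runs. No run repeated another's counts (0 of 678 pairs). Two-sided tests ran on all SNPs of the series: Fisher's exact test between templates and an exact binomial test of gDNA against a share of 0.5, with Benjamini-Hochberg adjustment per comparison, a threshold of 0.05 and at least 20 reads per template. Every SNP of the cross passed this minimum. Folds had 0.5 added to each count, and intervals are 95%. Alternatives were a Cochran-Mantel-Haenszel test with run as stratum, a quasi-binomial fit to the runs, an extra SD of 0.0753 (log2) between amplicons estimated from gDNA, other read minima (50 or none), a pseudocount of 1, a required 1.5-fold size, mRNA against 1:1, and each run left out. All 17 SNPs are described. The SNPs, tests and alternatives were chosen with earlier results of these data known. The tests were tried on simulated counts. Python 3.11.15, numpy 2.4.6, scipy 1.17.1, pandas 2.3.3 and matplotlib 3.10.9 were used.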

Additional observations from a re-analysis of the deposited data

Results flagged for a closer look

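The allele ratio differed between the muscle and liver amplicons (Fisher's exact test, two-sided, adjusted over the 50 SNPs measured in both tissues) at 10 of the 15 SNPs of the cross, where tissue and pool cannot be told apart. The log2 difference, muscle over liver, favoured C in muscle by 1.002 at rs29317345, 0.44 at rs30114270, 0.22 at rs31853413 and 0.12 at rs13462879. It favoured A in muscle by 0.71 at rs29429994, 0.68 at rs52257281, 0.54 at rs30896490 and 0.25 at rs29396200. It favoured G by 0.52 at rs29924703, and T by 0.45 at rs33431534. Each stood in the same direction in all 3 runs, as did all 31 of the series' calls.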

How the results depend on the processing

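Read minima of 50 or none, a pseudocount of 1 and the test stratified by run (replicate block) left the counts of calls as reported, with 10 SNPs in muscle and 7 in liver against gDNA and 10 between tissues under the replicate block. The run numbers mark sequencing runs, and whether same-numbered runs pair the pools was not tested. Taken over SNPs of all crosses (49 to 75 SNPs), the correlation of same-numbered runs' deviations ranged from -0.38 to 0.38. Both extremes were between muscle and liver, at 0.38 in run 1 and -0.38 in run 2. The quasi-binomial model called 6 SNPs in muscle, 4 in liver and 7 between tissues, and extra variance between amplicons 4, 3, 7 and, for gDNA against 1:1, 2. A required 1.5-fold size left 3, 1, 3 and 0, where the exact binomial test without the requirement called 4 in gDNA. Against 1:1 without gDNA, 12 SNPs were called in muscle and 11 in liver. Leaving out 1 run gave 8 to 9 calls in muscle, 6 to 8 in liver, 9 to 10 between tissues and 3 to 5 in gDNA. For the 1.5-fold requirement, mRNA against 1:1 and the left-out runs, the same counts were not made over the series. Without run 2, gDNA lost rs29429994 and rs33350730 and gained rs30896490, rs32521298 and rs33431534. For the 3 comparisons between templates, log2 values were listed under these settings except mRNA against 1:1. Of 470 values, 9 changed sign, all in comparisons in which that SNP was not called. The 470 overstate the check, since the quasi-binomial model, extra variance, the read minima and the 1.5-fold requirement leave the log2 value as it is. Only the pseudocount of 1, the replicate block and the left-out runs could change a sign. Against gDNA in liver these were rs29429994 (-0.050 to 0.24 without 1 run), rs51271512 (-0.073 to 0.14) and rs33350730 (-0.031 to 0.019, and -0.0039 under the replicate block). Against gDNA in muscle they were rs3685280 (-0.063 to 0.28) and rs51271512 (-0.012 to 0.21), and between tissues rs32521298 (-0.032 to 0.041), rs33350730 (-0.0030 to 0.094) and rs51271512 (-0.023 to 0.28). The cause of these changes was not tested. The fewest reads were 541 (rs3685280 in muscle) and 835 (rs52257281 in gDNA).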
